A study of Mus musculus with 14 samples.

Results

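Calprotectin and the genes of mature neutrophil surface proteins were followed in livers from an orthotopic mouse model of pancreatic ductal adenocarcinoma (PDAC). The 10 genes were chosen by name and matched to the gene names of the liver count table, where each of the 10 occurs once among 54532 genes. They fall into 3 roles. *S100a8* and *S100a9* encode the subunits of calprotectin, *Cd177*, *Ly6g* and *Retnlg* encode surface or secreted proteins of neutrophils, and *Csf3r*, *Fpr1*, *Fpr2*, *Il1r2* and *Trem1* encode receptors.

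RNA-Seq libraries came from 8 livers, taken 20 days after an injection of 100000 KPCY cells (a mouse pancreatic cancer line with a yellow fluorescent tracer) into the tail of the pancreas. The groups were WT mice (n = 2), TRPV4-KO mice (n = 3) and WT mice given the TRPV4 antagonist GSK219 (n = 3), at 10 mg/kg by gavage every 24 hours. All mice were 8 to 12 weeks old, and every one of them carried KPCY cells, so none of the groups is free of tumor. The Methods use the name WT for *Piezo1* fl/fl mice, whose alleles are floxed but intact without a Cre. The *Trpv4* -/- deletion is global in the host, whereas the injected KPCY cells have a working channel. It is not stated whether the WT mice received the carrier of GSK219, so the drug and its gavage cannot be told apart. The label of GSK219 replicate 3 spells the drug GSRK219.

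Neutrophils are short-lived white blood cells that leave the bone marrow in response to granulocyte colony-stimulating factor and are drawn into tissue by chemokines, formylated peptides and other attractants. S100A8 and S100A9 make up a large part of the protein in their cytosol, and the released complex, calprotectin, binds metal ions and acts as an inflammatory signal. In the liver, these cells are known to gather around tumor deposits and at sites of infection or necrosis. Monocytes also express *S100a8*, *S100a9*, *Csf3r*, *Fpr1*, *Fpr2* and *Trem1*, whereas Ly6G and CD177 mark neutrophils more narrowly in the mouse.

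Total counts per liver lay between 15567031 and 17395299, and levels are given as CPM, counts scaled to library size with edgeR's TMM factors (0.944 to 1.04). The targeted gene *Trpv4* had 43 and 53 counts in WT, 15, 5 and 23 in TRPV4-KO and 20, 30 and 36 in GSK219 livers. A whole-gene count can hold exons outside the deleted part. Each group held 1 liver with high counts of *Xist*, an X-linked transcript of females (13681 to 15754 against 0 to 7 in the other 5), namely replicate 1 of WT and replicate 3 of both other groups. Counts of Y-linked genes were 56 to 252 in these 3 livers and 2444 to 2803 in the other 5. The former are called livers with *Xist* reads and the latter livers with Y-linked reads, by whichever count was higher. By a chi-square test of counts, divided by its degrees of freedom, livers of a group stood 16.8 to 111 apart, where sampling noise alone gives about 1, and none was counted as a repeat of another. The labels call them biological replicates, 1 column per liver. Hepatocyte identity was plain in all 8, with 542843 to 1278660 counts of *Alb*, the gene of albumin.

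On GRCm38, *S100a8* lies on chromosome 3 from 90668978 to 90670035 on the plus strand, and *S100a9* from 90692632 to 90695721 on the minus strand, with 22.6 kb between them. *Cd177* lies on chromosome 7 from 24743983 to 24760311 on the minus strand. To show what lies before the 3 genes with the widest differences between groups, the 250 bases ahead of their RefSeq transcription starts (GRCm38.p6) are given from 5′ to 3′ on the strand of the gene, with motif matches in capitals.
S100a8, chr3:90668821-90669070, plus strand: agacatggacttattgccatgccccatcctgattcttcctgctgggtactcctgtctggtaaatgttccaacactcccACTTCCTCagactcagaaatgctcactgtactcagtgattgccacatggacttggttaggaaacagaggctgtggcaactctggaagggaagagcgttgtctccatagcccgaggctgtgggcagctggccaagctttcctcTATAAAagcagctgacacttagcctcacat
S100a9, chr3:90695722-90695971, minus strand: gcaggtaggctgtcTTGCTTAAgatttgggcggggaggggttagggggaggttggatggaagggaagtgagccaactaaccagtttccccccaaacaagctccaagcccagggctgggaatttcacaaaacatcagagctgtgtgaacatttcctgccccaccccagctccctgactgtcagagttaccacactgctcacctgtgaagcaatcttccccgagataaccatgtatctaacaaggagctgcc
Cd177, chr7:24760312-24760561, minus strand: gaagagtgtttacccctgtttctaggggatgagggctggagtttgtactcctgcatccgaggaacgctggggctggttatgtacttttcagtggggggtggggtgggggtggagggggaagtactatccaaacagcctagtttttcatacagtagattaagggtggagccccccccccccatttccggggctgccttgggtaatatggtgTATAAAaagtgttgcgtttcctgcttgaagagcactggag
The capitals mark exact matches, on either strand, to 3 motifs, the TATA box (TATAAA), a motif of the myeloid factor PU.1 (GAGGAAGT, or ACTTCCTC on the other strand) and a motif of C/EBP factors (TTGCNNAA). The TATA box began 30 bases before the start of *S100a8* and 40 bases before that of *Cd177*. All 10 genes had a RefSeq promoter. The letters TATAAA were found before 5 of them (*S100a8*, *Cd177*, *Ly6g*, *Fpr1* and *Fpr2*), against 12.4% of 32851 promoter windows of the same length, counted per window and not per gene. They began farther from the start in *Ly6g* (99 or 167 bases, by the start used), *Fpr1* (227 bases) and *Fpr2* (130 bases) than in *S100a8* and *Cd177*. The PU.1 motif was found before *S100a8* and *Ly6g*, against 2.4% of windows, and the C/EBP motif before *S100a9*, *Ly6g* and *Retnlg*, against 9.6%. No 2 of these matches overlapped. Such matches describe letters only, and binding was not measured. The deposited gene model of *S100a8* starts inside the window shown.

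Calprotectin transcripts were at higher levels in WT livers than in both other groups. *S100a8* had 220 and 274 counts in the WT livers, 7, 15 and 35 in the TRPV4-KO livers and 14, 18 and 20 in the GSK219 livers. *S100a9* had 273 and 395 counts in WT, 7, 14 and 48 in TRPV4-KO and 14, 29 and 39 in GSK219. For both genes the WT livers stood far above all 6 others, and the TRPV4-KO and GSK219 livers overlapped. In bulk liver RNA, fewer cells of a type cannot be told apart from less RNA in each cell. Expressed as CPM, *S100a8* was 14.8 ± 1.67 (SD, n = 2) in WT, 1.15 ± 0.81 (SD, n = 3) in TRPV4-KO and 1.05 ± 0.16 (SD, n = 3) in GSK219. *S100a9* was 19.95 ± 4.34 (SD, n = 2), 1.38 ± 1.24 (SD, n = 3) and 1.65 ± 0.73 (SD, n = 3).

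*Cd177*, which encodes a GPI-anchored glycoprotein of neutrophils that binds PECAM1 on endothelium, followed calprotectin. It had 48 and 64 counts in WT, 1, 1 and 3 in TRPV4-KO and 4, 8 and 1 in GSK219, so that the lowest WT liver had 6 times the count of the highest other liver. *Ly6g*, the antigen most used to identify mouse neutrophils, was close to absent from every library, with 2 and 3 counts in WT, 0, 0 and 1 in TRPV4-KO and 0, 0 and 1 in GSK219. No fold is given for *Ly6g*, because each group was at or under 3 counts. *Retnlg*, which encodes a resistin-like protein secreted by granulocytes, had 24 and 47 counts in WT, 6, 2 and 10 in TRPV4-KO and 1, 7 and 14 in GSK219. Its WT livers lay above the others, the lower of them at 24 against 14 in the highest GSK219 liver.

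The receptors were less uniform. *Csf3r*, which encodes the receptor for granulocyte colony-stimulating factor, had 314 and 343 counts in WT, 102, 65 and 177 in TRPV4-KO and 58, 138 and 158 in GSK219, without overlap. *Il1r2*, a decoy receptor that takes up interleukin-1 without signaling, had 15 and 16 counts in WT, 2, 0 and 7 in TRPV4-KO and 0, 4 and 3 in GSK219. *Trem1*, an activating receptor that signals through the adaptor TYROBP, had 10 and 4 counts in WT, 0, 0 and 3 in TRPV4-KO and 1 in each GSK219 liver. These 3 receptors were separated between WT and the other groups, *Trem1* only by counts too low for the fitted test.

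The formyl peptide receptors, which guide neutrophils along bacterial and mitochondrial peptides, came closest to equal levels. *Fpr1* had 130 and 132 counts in WT, 71, 21 and 99 in TRPV4-KO and 56, 83 and 122 in GSK219. *Fpr2* had 36 and 34 counts in WT, 8, 11 and 31 in TRPV4-KO and 10, 19 and 36 in GSK219. For *Fpr2* the highest GSK219 liver reached the WT level, whereas the lowest WT liver stayed above every TRPV4-KO liver for both receptors. Of the 50-base stretches in the *Fpr2* transcripts, 31.5% also occur in *Gm5966*, *Fpr3* or *Fpr1*, so reads could be split between these paralogs. The shared part was 10.5% for *Csf3r*, 5.51% for *Cd177* and at most 0.45% for the other 7 genes. *Fpr2* overlaps *Fpr3* (0 to 1 counts per liver) and *Il1r2* overlaps *Gm37347* (0 to 2 counts) on the same strand.

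**Figure D1:**
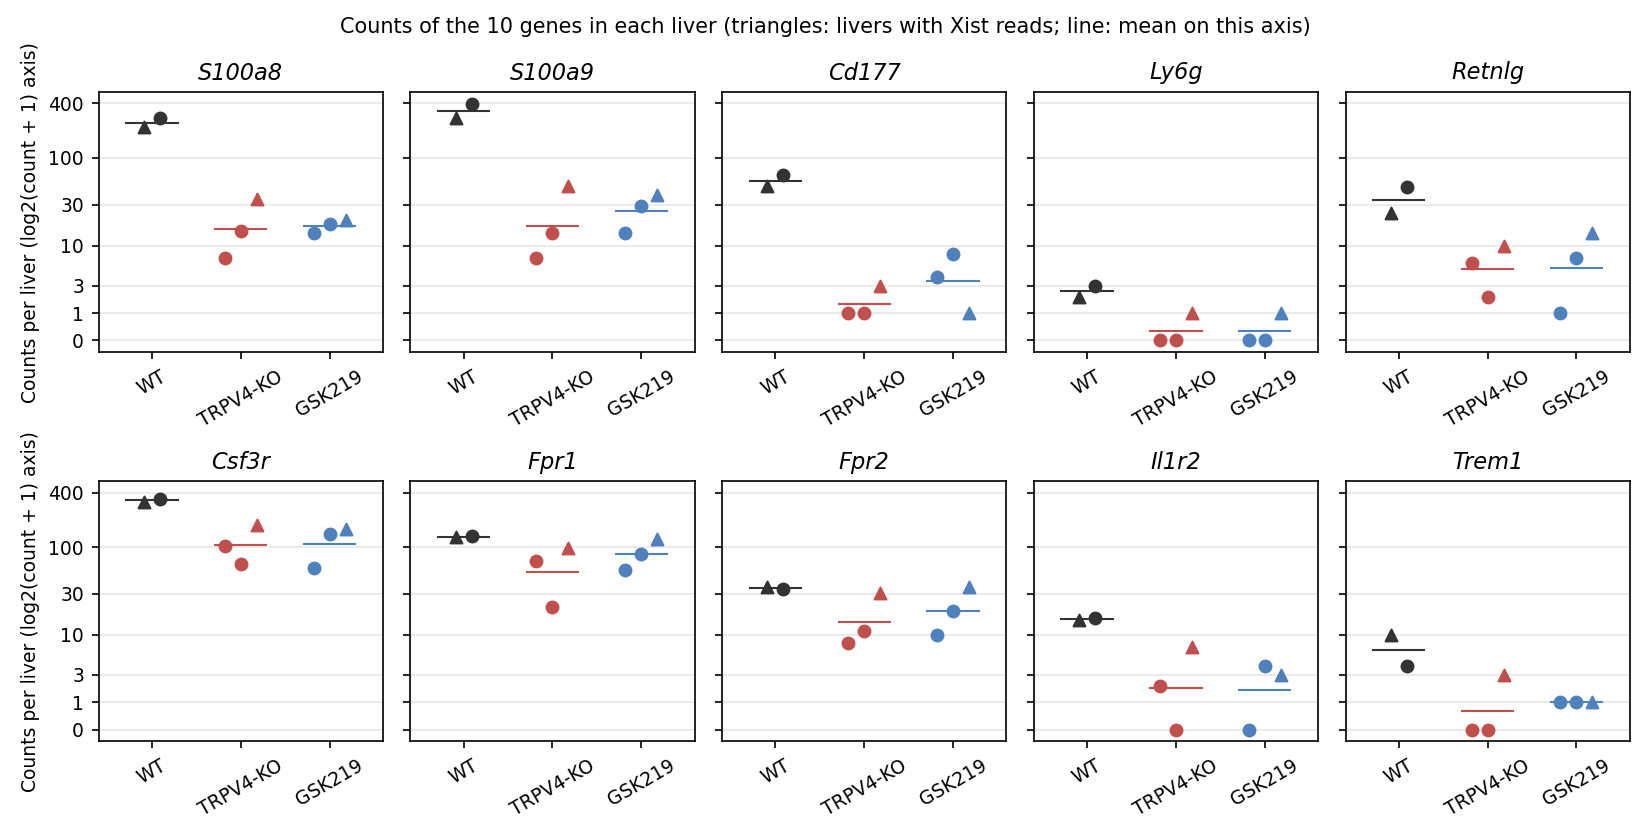
Counts of each of the 10 genes in each liver, on an axis of log2(count + 1) labelled in counts, with 1 panel per gene and the 3 groups on the horizontal axis. Triangles are livers with Xist reads, circles are the other livers, and the horizontal line is the group mean on this axis. WT livers sit at 220 to 274 counts of S100a8 against 7 to 35 in the other groups, while for Fpr2 the highest GSK219 liver, at 36 counts, is level with WT.

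Whether livers lacking TRPV4 differed from WT was tested with edgeR's quasi-likelihood test on all 8 livers, over the 15118 genes that passed the filter on low counts. Of the 10 genes, 8 passed this filter, and *Ly6g* and *Trem1* did not. A gene was called at a Benjamini-Hochberg adjusted p under 0.05 with a log2 fold change over 1. By this rule 2 of the 8, *S100a8* and *Cd177*, passed with higher values in WT, where 0.152% of all genes tested were. Unadjusted p-values were under 0.05 with higher values in WT for 6 of the 8, against 9.5% of all genes. The livers did not overlap, with WT above, for 8 of the 8, against 17.7% of all genes tested. The median log2 fold change of the 8 was 2.40, and that of all genes was -0.01. The genes were picked with earlier results of these data known, and the study itself singled out some of them in these livers. Moreover, a gene that passes the filter only through its WT livers has to differ, so these shares describe the 8 and are no test of them.

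*S100a8* was 12.7-fold higher in WT than in the knockout, or 3.67 on the log2 scale (SE 0.47, edgeR adjusted p = 0.0275). Its partner *S100a9* differed by 3.84 on this scale (SE 0.64), about as much, but with an adjusted p of 0.0693 by edgeR it missed the threshold. *S100a9* did pass without TRPV4-KO replicate 3 (log2 fold change 4.88, edgeR adjusted p = 0.00649), with a term for *Xist* or Y-linked reads in the model (edgeR adjusted p = 0.0195) and by DESeq2 (adjusted p = 1.96e-07). With the sex term, 3 of the 8 genes were called, *S100a8*, *S100a9* and *Cd177*, but 252 genes in all were, against 23 without it. For *Cd177* the fitted value was 4.93 (SE 0.68, edgeR adjusted p = 0.0358). As its TRPV4-KO livers had 1 to 3 counts, the ratio of summed counts, scaled to library size, is given too. It was 32.6, with a 95% counting interval (Clopper-Pearson) from 13.6 to 102. Counting intervals pool the reads of a group and cover counting error only. They leave out the spread between livers, so they are too narrow for a difference between groups. Several reads can also stem from 1 molecule. Both calls rested on few livers, as the *S100a8* call was lost without WT replicate 1, WT replicate 2 or TRPV4-KO replicate 2 (adjusted p by edgeR 0.211, 0.128 and 0.144), and the *Cd177* call without any of these or TRPV4-KO replicate 1 (0.226, 0.148, 0.169 and 0.183). The fitted log2 values in these fits stayed from 3.56 to 3.80 for *S100a8* and from 4.70 to 5.10 for *Cd177*. Without TRPV4-KO replicate 3 the log2 fold changes were 4.38 for *S100a8* and 5.55 for *Cd177*, and with only the WT and TRPV4-KO livers in the fit *S100a8* had an adjusted p of 0.127 by edgeR.

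*Retnlg* and the 4 receptors tested did not pass the threshold against TRPV4-KO. On the log2 scale, *Retnlg* was higher in WT by 2.50 (SE 0.78, edgeR adjusted p = 0.181) and *Il1r2* by 2.30 (SE 0.97, edgeR adjusted p = 0.276). With a liver left out, these values ranged from 2.01 to 3.01 and from 1.76 to 3.71. *Csf3r*, with far more counts than either, had a smaller value of 1.50 (SE 0.43, edgeR adjusted p = 0.161). *Csf3r* did pass without TRPV4-KO replicate 3 (edgeR adjusted p = 0.0434) and by DESeq2 on all 8 livers (adjusted p = 0.0191). For *Fpr1* and *Fpr2* the log2 fold changes were 1.02 and 1.05 (SE 0.52 and 0.62), with 95% intervals from -0.16 to 2.20 and from -0.36 to 2.46 that include no difference. With a liver left out, they ranged from 0.62 to 1.43 and from 0.73 to 1.78. *Trem1* had 14 counts in all in WT and 3 in TRPV4-KO, a scaled ratio of 6.80. Its counting interval, from 1.90 to 36.9, leaves out the spread between livers. An exact two-sided permutation test of CPM gave p = 0.2 for *Trem1* and p = 0.2 for *Ly6g*, the smallest that 2 against 3 livers allow.

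Blocking the channel with GSK219 was compared with the same 2 WT livers, so this comparison is not independent of the first. Here 0 of the 8 genes were called by edgeR, as were 0% of all genes tested, while 6 of the 8 had an unadjusted p under 0.05 and were higher in WT, against 5.87% of all genes. DESeq2 on the same counts called 3 of them (*S100a8*, *S100a9* and *Cd177*) and 64 genes in all as higher in WT. WT lay above every GSK219 liver for 7 of the 8, all but *Fpr2*, against 15.6% of all genes. The median log2 fold change of the 8 was 2.44, with 0.00 over all genes.

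For calprotectin, the fitted differences from GSK219 livers were of similar size to those from TRPV4-KO livers. On the log2 scale, the value for *S100a8* was 3.80 (SE 0.48, 95% interval from 2.71 to 4.89, edgeR adjusted p = 0.172) and that for *S100a9* 3.58 (SE 0.63, edgeR adjusted p = 0.341). *S100a8* did pass by edgeR with the sex term (adjusted p = 0.0481), with only the WT and GSK219 livers in the fit (adjusted p = 0.0147) and without the filter (adjusted p = 0.00245). *Cd177* had 3.62 (SE 0.60, edgeR adjusted p = 0.276). The values for *Retnlg*, *Il1r2* and *Csf3r* were 2.23, 2.65 and 1.46 (SE 0.77, 1.00 and 0.43). Those for *Fpr1* and *Fpr2* were 0.57 and 0.68 (SE 0.51 and 0.61), with 95% intervals from -0.60 to 1.75 and from -0.72 to 2.07. *Trem1*, with 3 counts in all in GSK219, had a scaled ratio of 6.89 (counting interval from 1.92 to 37.4, again without the spread between livers). For *Ly6g* and *Trem1* the exact two-sided permutation test again gave p = 0.2, its smallest value.

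**Figure D2:**
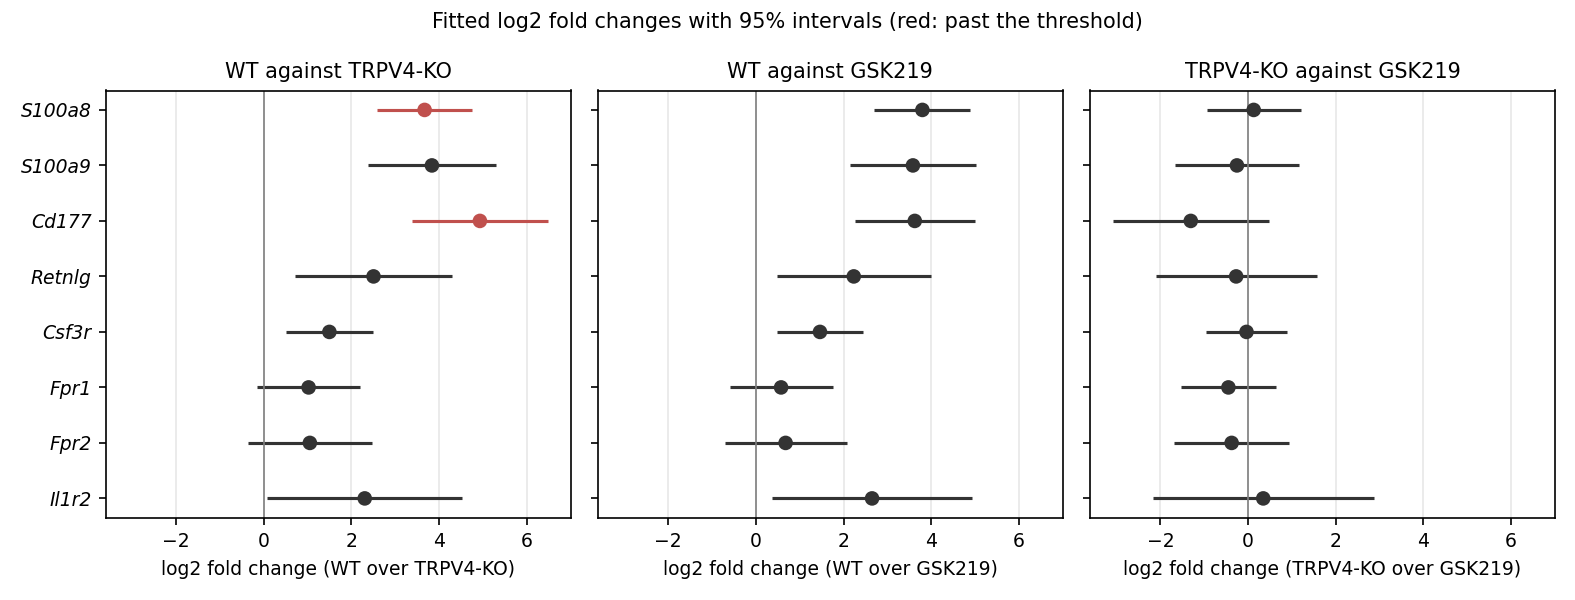
Fitted log2 fold changes (points) with 95% intervals (lines) for the 8 genes tested, in the 3 comparisons of liver groups, where a positive value means higher in the group named first. Red marks genes past the threshold, which are S100a8 and Cd177 in WT against TRPV4-KO. The values of S100a8, S100a9 and Cd177 lie above 3.5 in both comparisons with WT, those of Fpr1 and Fpr2 have intervals that cross 0, and all intervals cross 0 in TRPV4-KO against GSK219.

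Deletion and antagonist were then compared with each other directly. By edgeR 0 of the 8 genes were called in either direction, where 0.0992% of all genes were, and 0 of the 8 had an unadjusted p under 0.05, against 6.12% of all genes. DESeq2 called 0 of the 8 and 93 genes in all. *S100a8* differed between TRPV4-KO and GSK219 livers by 0.13 on the log2 scale, with a 95% interval from -0.95 to 1.21, and *S100a9* by -0.25, from -1.67 to 1.16. For *Csf3r* the difference was -0.03, from -0.95 to 0.88. The widest was that of *Cd177*, lower in TRPV4-KO by -1.31, from -3.09 to 0.48 (adjusted p = 0.895 by edgeR). These intervals leave room for sizeable differences between the groups (from 0.519-fold to 2.31-fold for *S100a8*), so equal levels are not shown.

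The order of the 10 genes by level was not the same in the 3 groups. Per kilobase of gene length, the order in WT was *S100a9* (38.2 ± 8.31 CPM per kb, SD, n = 2), *S100a8* (21.3 ± 2.40), *Fpr1* (5.94 ± 0.19), *Csf3r* (5.46 ± 0.11) and *Retnlg* (3.56 ± 1.50). *Fpr2*, *Cd177*, *Il1r2*, *Ly6g* and *Trem1* followed at 1.62, 1.18, 0.49, 0.16 and 0.14 CPM per kb. In TRPV4-KO livers *Fpr1* came first by its mean (2.92 ± 1.70 CPM per kb, SD, n = 3), ahead of *S100a9* (2.64 ± 2.37), *Csf3r* (1.93 ± 0.85) and *S100a8* (1.65 ± 1.16), and these neighbors did not differ beyond their spread. *Fpr1* led *S100a9* in TRPV4-KO replicate 1 alone (3.39 against 0.85). It was below *S100a9* in replicates 2 and 3 (1.03 against 1.74 and 4.33 against 5.32). GSK219 livers had the same order of the 4 means, with 3.99 ± 1.43, 3.17 ± 1.40, 1.98 ± 0.85 and 1.52 ± 0.23 CPM per kb (SD, n = 3). At the low end of the WT order, *Ly6g* and *Trem1* did not differ beyond their spread.

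A ratio taken within a library is free of the scaling between libraries. Counts of *S100a8* and *S100a9* together, divided by those of *Csf3r*, were 1.57 and 1.95 in the WT livers, 0.14, 0.45 and 0.47 in TRPV4-KO and 0.48, 0.34 and 0.37 in GSK219. The ratio in WT, 1.76 ± 0.27 (SD, n = 2), was thus 5.02 times that in TRPV4-KO (0.35 ± 0.19, SD, n = 3) and 4.41 times that in GSK219 (0.40 ± 0.07, SD, n = 3). An exact two-sided permutation test gave p = 0.2 for each comparison, the smallest that these group sizes allow. Calprotectin made up 46.0% and 51.0% of the counts on all 10 genes in WT livers and from 6.9% to 22.5% in the other 6. Between the calprotectin genes themselves, the count of *S100a9* per count of *S100a8* was 1.24 and 1.44 in WT, 1.00, 0.93 and 1.37 in TRPV4-KO and 1.00, 1.61 and 1.95 in GSK219. These ranges overlapped, unlike those against *Csf3r*.

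**Figure D3:**
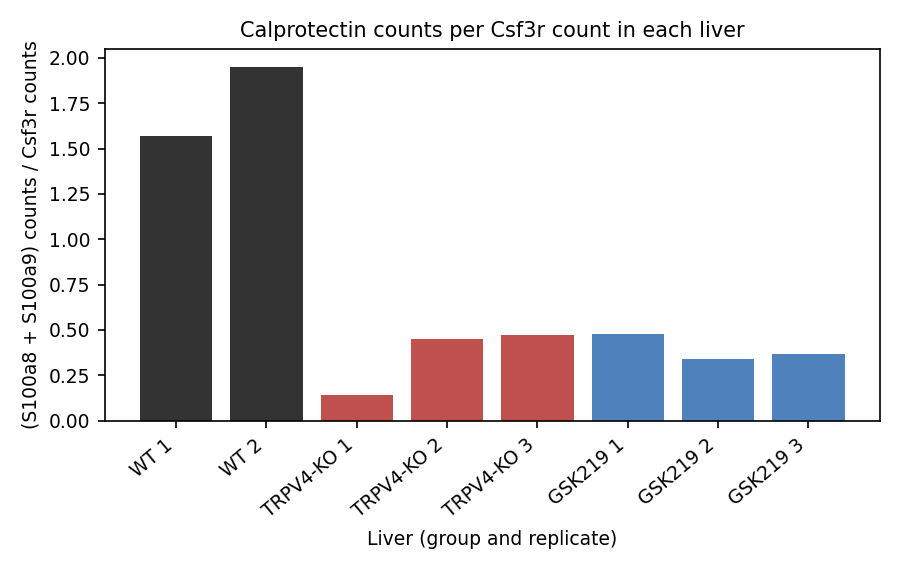
Summed counts of S100a8 and S100a9 divided by the counts of Csf3r in the same liver (vertical axis, no unit), with 1 bar for each of the 8 livers. The WT bars reach 1.57 and 1.95, and the bars of the other 6 livers lie between 0.14 and 0.48.

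TRPV4-KO replicate 3 had the highest CPM of its group for 8 of the 8 genes tested, against 44.6% of all genes tested, and GSK219 replicate 3 for 6 of the 8, against 39.1%. These are the livers with *Xist* reads in their groups. In WT, the liver with *Xist* reads was the higher one for 2 of the 8, against 50.4%. Within the livers with *Xist* reads, 1 per group, WT was above TRPV4-KO for 8 of the 8 genes tested, against 50% of all genes tested, and above GSK219 for 8 of 8, against 50.7%. Within the 5 livers with Y-linked reads, the single WT liver was above both TRPV4-KO livers for 8 of 8, against 40.7%, and above both GSK219 livers for 8 of 8, against 37.1%. These counts were largely fixed beforehand, since every WT liver lay above every TRPV4-KO liver for all 8. Against GSK219 the same held for all but *Fpr2*, so the counts are no further support. The size of the difference was not alike on the 2 sides. *S100a8* CPM in WT was 6.72 times that in TRPV4-KO among livers with *Xist* reads and 22.6 times among those with Y-linked reads, and *Fpr1* 1.40 times and 2.63 times. Against GSK219, the ratio for *Fpr2* was 1.03 with *Xist* reads and 2.23 with Y-linked reads, while that for *Cd177* went the other way, at 49.7 and 10.2 (1 count in the GSK219 liver with *Xist* reads). As each side has a single WT liver, whether sex changes the difference was not tested.

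Among genes that pair with the 10 as ligands, partners or adaptors, 17 of 18 were tested, and 1 (*Saa2*) was called higher in WT than in TRPV4-KO and 0 lower. SAA proteins are ligands of FPR2. *Saa2* had 85308 and 67986 counts in WT and 3213, 2843 and 5004 in TRPV4-KO, a difference of 4.36 on the log2 scale (SE 0.56, edgeR adjusted p = 0.0375). An unadjusted p under 0.05 with higher values in WT was found for 12 of the 17, against 9.5% of all genes tested. The median log2 fold change of the 17 was 1.11. *Camp*, whose peptide product also binds FPR2, had 30 and 39 counts in WT and 0, 0 and 4 in TRPV4-KO. *Csf3*, which encodes the ligand of CSF3R, had 0 counts in 7 of the livers and 3 in GSK219 replicate 1. A count of 0 allows up to 3 counts in a library. *Tyrobp*, the adaptor of TREM1, had 543 and 480 counts in WT and 181, 140 and 302 in TRPV4-KO (log2 fold change 1.28, edgeR adjusted p = 0.184). *Tlr4*, a receptor for calprotectin, had 133 and 104 counts against 64, 42 and 72 (0.97, edgeR adjusted p = 0.208), while *Ager*, another, had 9 and 11 against 9, 6 and 8.

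Of 22 other receptors and surface proteins of neutrophils, 17 were tested, and 1 (*Cxcr2*) was called higher in WT than in TRPV4-KO and 0 lower. *Cxcr2*, the receptor for CXCL1 and related chemokines, had 35 and 37 counts in WT and 2 to 4 in TRPV4-KO livers. The median log2 fold change of the 17 was 1.35, nearer to that of *Csf3r* than to that of *S100a8*. A value of this size was not particular to neutrophil genes. The median was 1.34 for Kupffer cell markers and 1.20 for monocyte and macrophage markers. Granule proteins, 13 of them tested, had a median of 3.04 with 0 called. All 13 had an unadjusted p under 0.05 with higher values in WT, against 9.5% of all genes tested. *Mpo*, for example, had 92 and 70 counts in WT and 0, 0 and 5 in TRPV4-KO. A gene that passes the filter on low counts only through its WT livers has to differ, so this share is no test. The 6 tested S100 genes other than *S100a8* and *S100a9* had a median of 0.37 with 0 called in either direction, 2 of them higher and 1 lower in WT at an unadjusted p under 0.05. *S100a6*, the highest of these by fold, had 81 and 59 counts in WT and 25, 15 and 31 in TRPV4-KO (1.53, edgeR adjusted p = 0.115). Of granulocyte transcription factors, 8 of 10 were tested and 0 were called, with a median of 0.87, and of neutrophil chemoattractants 5 of 9 were tested and 0 were called, with a median of 0.99. *Cxcl1* had 1773 and 1336 counts in WT and 339, 348 and 699 in TRPV4-KO (1.73, edgeR adjusted p = 0.0766).

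Genes with a pattern over the 8 livers most like that of *S100a8* were sought by the root mean square difference of mean-centered log2 CPM values, over the 15118 genes tested. *S100a9* was the nearest, at a distance of 0.327 on the log2 scale. The 10 nearest genes that are not among the 10 described were *Camp* (0.349), *Elane* (0.391), *Chil3* (0.555), *Mpo* (0.586), *Ctsg* (0.663), *Gm41144* (0.672), *Slfn1* (0.696), *Mmp9* (0.74), *Fabp5* (0.789) and *Egr2* (0.809). Of these, *Camp*, *Elane*, *Chil3*, *Mpo*, *Ctsg* and *Mmp9* are on the list of granule proteins used above. *Elane* had 37 and 34 counts in WT and 0 to 5 in the other livers, and *Chil3*, a chitinase-like protein of myeloid cells, 79 and 48 against 1 to 20. *Cd177* ranked 7th at 0.638, *Il1r2* 27th at 0.923, *Retnlg* 41st at 0.967 and *Csf3r* 89th at 1.05. *Fpr2* and *Fpr1* were the last of the genes described, at ranks 570 and 1431 of 15118. The distance counts the size of a difference as well as its shape, and ranks are a description over these 8 livers.

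Markers of several other cell types were, like the 10 genes, at higher summed levels in WT livers, and their part in these differences was not tested. The summed CPM of the 10 genes was 66.3 and 76.5 in WT, from 8.36 to 24.0 in TRPV4-KO and from 9.94 to 23.6 in GSK219. Over all genes tested, every WT liver lay above every TRPV4-KO liver for 17.7%, the share to set beside the counts without overlap that follow. For 6 Kupffer cell markers, the sum lay between 1092 and 1218 in WT and between 287 and 653 in TRPV4-KO, with 6 of 6 above without overlap and 0 called. Monocyte and macrophage markers summed to 825 to 977 in WT and 333 to 597 in TRPV4-KO, with 8 of 10 above without overlap and 0 called. Of these, *Ly6c2*, which marks inflammatory monocytes, had 50 and 55 counts in WT against 14, 10 and 27. Markers of hepatic stellate cells and fibroblasts summed to 419 to 594 against 152 to 335, with 5 of 8 above and 0 called. Eosinophil, basophil and mast cell markers were low, at 3.40 to 4.49 CPM in WT, 0.44 to 0.93 in TRPV4-KO and 0.76 to 2.90 in GSK219, with 1 of 8 tested. That gene, the eosinophil chemokine receptor *Ccr3*, had 27 and 60 counts in WT, 6, 6 and 3 in TRPV4-KO and 9, 33 and 19 in GSK219 (3.02 on the log2 scale against TRPV4-KO, edgeR adjusted p = 0.0995).

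Summed lymphocyte markers overlapped, at 4.84 and 10.7 CPM in WT and 6.89 to 16.9 in TRPV4-KO, as did erythroid markers, at 367 and 555 against 511 to 549. Of the lymphocyte markers 2 B cell genes, *Cd79a* (18 and 4 counts against 21, 39 and 61) and *Ms4a1* (10 and 1 against 11, 14 and 39), were lower in WT without overlap, and neither was called. Duct and tumor epithelial markers summed to 680 to 711 in WT and 447 to 688 in TRPV4-KO, with 0 of 8 above without overlap, against 17.7% of all genes tested. Most of this sum was *Krt8* and *Krt18* (369 and 261 mean CPM in WT), keratins that hepatocytes also express, whereas *Krt19*, *Krt7*, *Epcam* and *Msln* were at 1.24 to 3.21 mean CPM in WT. Pancreatic acinar markers were at 1.24 to 1.75 CPM in WT, 0.70 to 0.84 in TRPV4-KO and 0.85 to 1.97 in GSK219, nearly all of it *Cela2a* in WT and TRPV4-KO. Summed hepatocyte markers were lower in WT, at 55227 to 66506 CPM against 79813 to 99171, mostly through *Alb*, which differed by -0.81 on the log2 scale (edgeR adjusted p = 0.151). Of the 8 hepatocyte markers, 2 lay below without overlap and 0 were called, with a median log2 fold change of -0.21. Against GSK219 livers the sums were 324 to 762 for Kupffer cell markers, 357 to 662 for monocyte and macrophage markers and 77707 to 87568 for hepatocyte markers, each without overlap with WT. Sums of stellate cell and fibroblast markers, at 214 to 343 in GSK219, and of duct and tumor epithelial markers, at 513 to 645, did not overlap with WT either. In these lists 6 of 8 and 4 of 8 genes were above without overlap, against 15.6% of all genes tested.

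**Figure D4:**
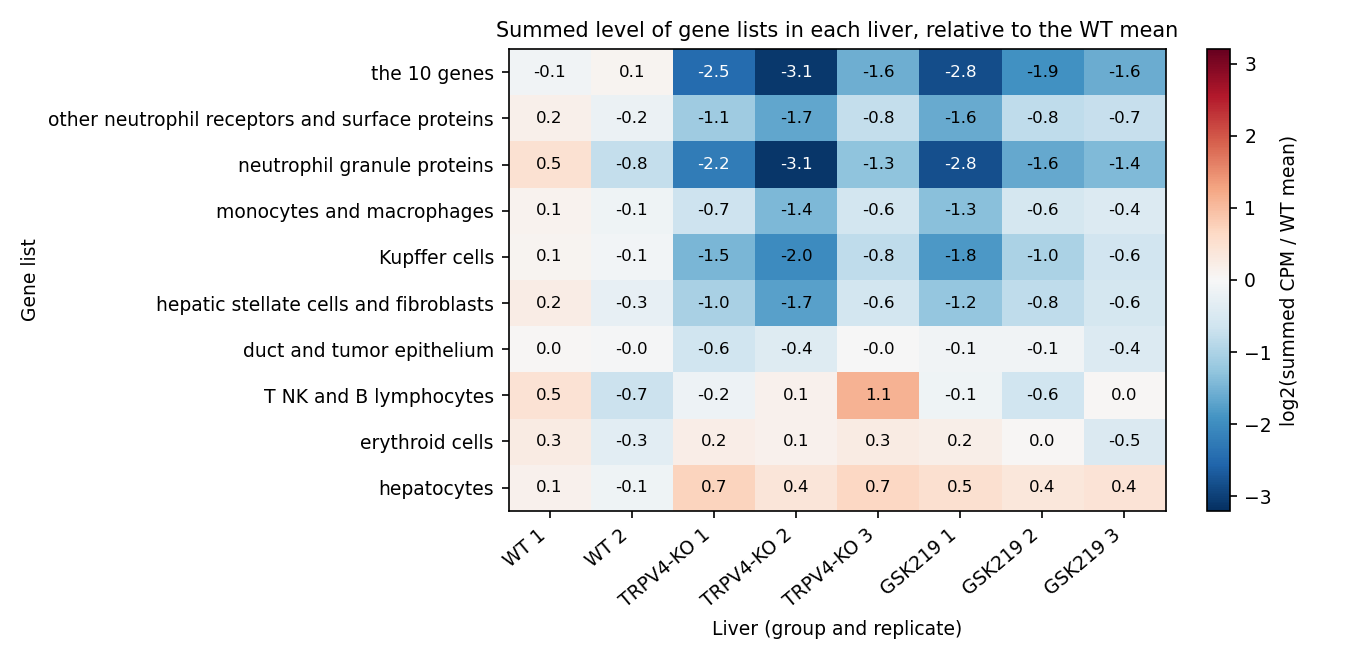
Summed CPM of each gene list in each of the 8 livers, as log2 of the ratio to the WT mean (color scale and printed values), with lists as rows and livers as columns. The 10 genes lie between -3.09 and -1.57 in the TRPV4-KO and GSK219 livers, the Kupffer cell markers between -2.01 and -0.60, and the hepatocyte markers between 0.35 and 0.70.

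The pancreatic stellate cell libraries of the same series, treated with the PIEZO1 agonist Yoda1 or with DMSO, could not be set beside the livers. Of the 10 genes, 0 are listed among the 16481 genes of that table, so no level in stellate cells is given.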

How the data were processed

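Per the labels, RNA was extracted with a Ribopure kit and the liver libraries were built by Novogene. The authors deposited raw counts per gene for the livers, with coordinates identical to GENCODE M21 (GRCm38) for 98.3% of shared gene identifiers and for all 10 genes. HISAT2 2.0.5 and Trim Galore appear in the submitters' processing notes. The counting tool and its strand setting are not given in the sources used here, and no test is named for the counts. A further 7 count columns matched no labelled sample and were not used. Of the stellate cell table, which also holds the authors' own fold changes and p-values, only gene names were read.

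Testing used edgeR 4.0.16 under R 4.3.3 (TMM, filter with minimum count 10, robust quasi-likelihood fit of all 8 livers in 1 model, Benjamini-Hochberg adjustment), and with DESeq2 1.42.0 as an alternative. The planned test of stellate cells was not run, because none of the genes is listed there. Genes under the filter were compared by exact permutation in scipy 1.17.1. Per-kb levels used the deposited gene length. Shared stretches of 50 bases were sought in GENCODE M21 transcripts, and promoters came from RefSeq. The genes, lists and tests were chosen with earlier results of these data known, and the promoter motifs after the promoter sequences had been seen. Named genes were the 10, at most 4 examples per list with the smallest p, and the 10 genes nearest to *S100a8* by the distance with a prior count of 2. *Tyrobp*, *Tlr4*, *Ager*, *Csf3*, *Krt19*, *Krt7*, *Epcam* and *Msln* are not covered by it and were picked with their values in view. Alternatives were DESeq2, another normalization, no filter, the replicate number as a block, a term for sex reads, a fit of just the groups compared, no threshold on fold, and each liver left out in turn.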

Additional observations from a re-analysis of the deposited data

How the results depend on the processing

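All 96 values of the genes in alternatives for WT against TRPV4-KO, and all 96 for WT against GSK219, were higher in WT. This shared direction is no test, as WT and TRPV4-KO livers did not overlap for any gene tested. The alternative without a threshold on fold also repeats the values of the main fit. Of the values against TRPV4-KO, 80 kept their side of the threshold, 8 lost a call and 7 gained one, and against GSK219 86 kept it and 9 gained a call. The values that kept it include these repeats. In each comparison 1 value, *Il1r2* by DESeq2, had no adjusted p. The cause of the changed calls was not tested. The number of the 10 genes called higher in WT than in TRPV4-KO was 2, and 4 with DESeq2 or the replicate block, 3 with the sex term, 1 with only the groups compared, and from 0 to 4 with a liver left out, 4 being without TRPV4-KO replicate 3. Genes called in all were 23, and 370 with DESeq2, 100 without a filter, 351 with the replicate block, 252 with the sex term, 11 with only the groups compared, and from 2 (without WT replicate 2) to 573 (without TRPV4-KO replicate 3). Leaving out a WT liver leaves 1, assumed to vary like the other groups. Against GSK219, 0 of the 10 became 3 with DESeq2, 2 without a filter, 2 with the replicate block, 1 with the sex term and 1 with only the groups compared, and 0 genes in all became 64, 7, 9, 2 and 2, and from 0 to 2 with a liver left out. For TRPV4-KO against GSK219, 15 genes became 93 with DESeq2, 38 without a filter, 34 with the sex term and from 8 to 79 with a liver left out, while 0 of the 10 were called in any alternative. There, 12 values changed sign with a liver left out, with ranges from -0.58 to 0.51 for *S100a8*, -1.29 to 0.16 for *S100a9*, -0.78 to 0.57 for *Retnlg*, -0.43 to 0.23 for *Csf3r*, -1.10 to 0.18 for *Fpr2* and -1.06 to 0.94 for *Il1r2*. Replicate numbers did not pair the livers, as deviations from group means correlated from -0.48 to 0.58 across genes in 7 same-numbered pairs, and WT has no replicate 3. Pairs from different groups that were alike in having *Xist* or Y-linked reads correlated from 0.15 to 0.63. Pairs that were unlike in this correlated from -0.63 to -0.29, and the main fit has no term for it. With the block, adjusted p against TRPV4-KO by edgeR was 0.00896 for *S100a8*, 0.00609 for *S100a9*, 0.0366 for *Cd177* and 0.0463 for *Csf3r*, and against GSK219 0.0162 for *S100a8* and 0.0132 for *S100a9*. At 0 to 3 counts, differences in *Ly6g* were not detectable at this depth.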
